A study of Mus musculus with 4 samples.

Results

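Npas2 and the core genes of the circadian clock were followed in CD4+CD25+ cells, a sorting gate that enriches regulatory T cells (Tregs), from the spleens of mice aged 7 weeks. The list held 10 genes, Npas2, Clock, Arntl, Per1, Per2, Cry1, Cry2, Nr1d1, Nr1d2 and Dbp, and they were picked by name from a table of 16383 genes. Of these, 9 were measured and all 9 were expressed highly enough to be kept (2 or more of the 4 libraries at a value of 10 or above), as were 11571 genes in all. Cry2 was not analysed here. The list was drawn up with the values of the same libraries in view, so differences between genotypes in these 9 genes are given as descriptions, with no test.

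The study compared mice labelled as lacking Helios (Helios KO, genotype Ikzf2-/-), with 2 libraries, and wild-type (WT) mice, with 2 libraries. Ikzf2 encodes Helios, a zinc finger transcription factor of the Ikaros family. The labels do not give the strain, the exons that the null allele lacks, the time of day at which the spleens were taken, or whether the 2 samples of a genotype came from separate mice, so the spread between them may be partly technical. Because clock transcripts cycle over the day, genotype and hour of collection cannot be told apart in these libraries. Values are reads normalised by the authors per kb of median transcript length, and log2 differences are of log2(value + 1), Helios KO minus WT. Each SE of a log2 difference is the moderated standard error of the limma fit. It combines the spread of a gene's own libraries with that of all tested genes, so it is not the spread of those libraries alone.

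The libraries held 42157138 and 49025051 recovered reads in Helios KO replicates 1 and 2, and 52543073 and 50940291 in WT replicates 1 and 2. Ikzf2 itself lay at 4396 and 3104 in Helios KO and at 5282 and 7864 in WT, a ratio of 0.571. The transcript was thus lower in both knockout libraries but far from absent, and since the labels do not say which exons were deleted, a sum across all exons tests the genotype labels only weakly. The Treg markers Foxp3, Il2ra and Ctla4 summed to 118867 and 77394 in Helios KO and to 101084 to 105356 in WT, so the defining markers of the sorted cells were present in every library. Helios KO replicate 2 stood apart. All 10 markers of red pulp macrophages were highest there, summing to 1222 and 68717 in Helios KO replicates 1 and 2 and to 2025 to 3268 in WT. The 8 neutrophil markers did the same, summing to 78.5 and 37355 in Helios KO and to 33.7 to 133 in WT, with 6 of the 8 at 0 in WT replicate 2 and 0 of the 8 at 0 in Helios KO replicate 2. The 6 markers of NK and cytotoxic cells summed to 1545 and 16881 in Helios KO and to 1764 to 2689 in WT. Erythroid markers summed to 226 and 8034 in Helios KO and to 124 to 525 in WT, and dendritic cell markers to 253 and 3868 in Helios KO and to 226 to 241 in WT. Platelet markers summed to 130 and 2153 in Helios KO and to 170 to 189 in WT, and B cell markers to 747 and 1782 in Helios KO and to 1079 to 1359 in WT. Apart from the Treg sum, each sum given here was highest in Helios KO replicate 2. The part of these cells in the values of clock genes was not tested, and results are also given for each Helios KO library alone.

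The circadian clock of mammals is a feedback loop of transcription. CLOCK, or its close relative NPAS2, pairs with BMAL1 (the product of Arntl) and switches on genes that carry E-box sequences, among them the period genes, the cryptochrome genes, the REV-ERB genes Nr1d1 and Nr1d2, and Dbp. Period and cryptochrome proteins then block the pair, while in a second loop REV-ERB proteins repress, and ROR proteins activate, genes with ROR elements such as Arntl. T cells, like most cells, run this loop, and it is known to shape when immune cells migrate and respond.

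Of the 9 clock genes, 6 were lower in both Helios KO libraries than in both WT libraries (Npas2, Arntl, Cry1, Nr1d1, Nr1d2 and Dbp). Per2 was higher in both, and Clock and Per1 overlapped. By the same rule 15.7% of all tested genes were lower and 12.5% higher. The median log2 difference was -0.32 over the 9 genes and -0.0014 over all tested genes. Since the list was chosen on this contrast, nothing is read from that count. Taking Helios KO replicate 1 alone, 7 of the 9 lay below both WT libraries, the 6 above and Per1, against 35.1% of all tested genes. Taking replicate 2 alone, the same 6 did, against 34.6%.

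**Figure D1:**
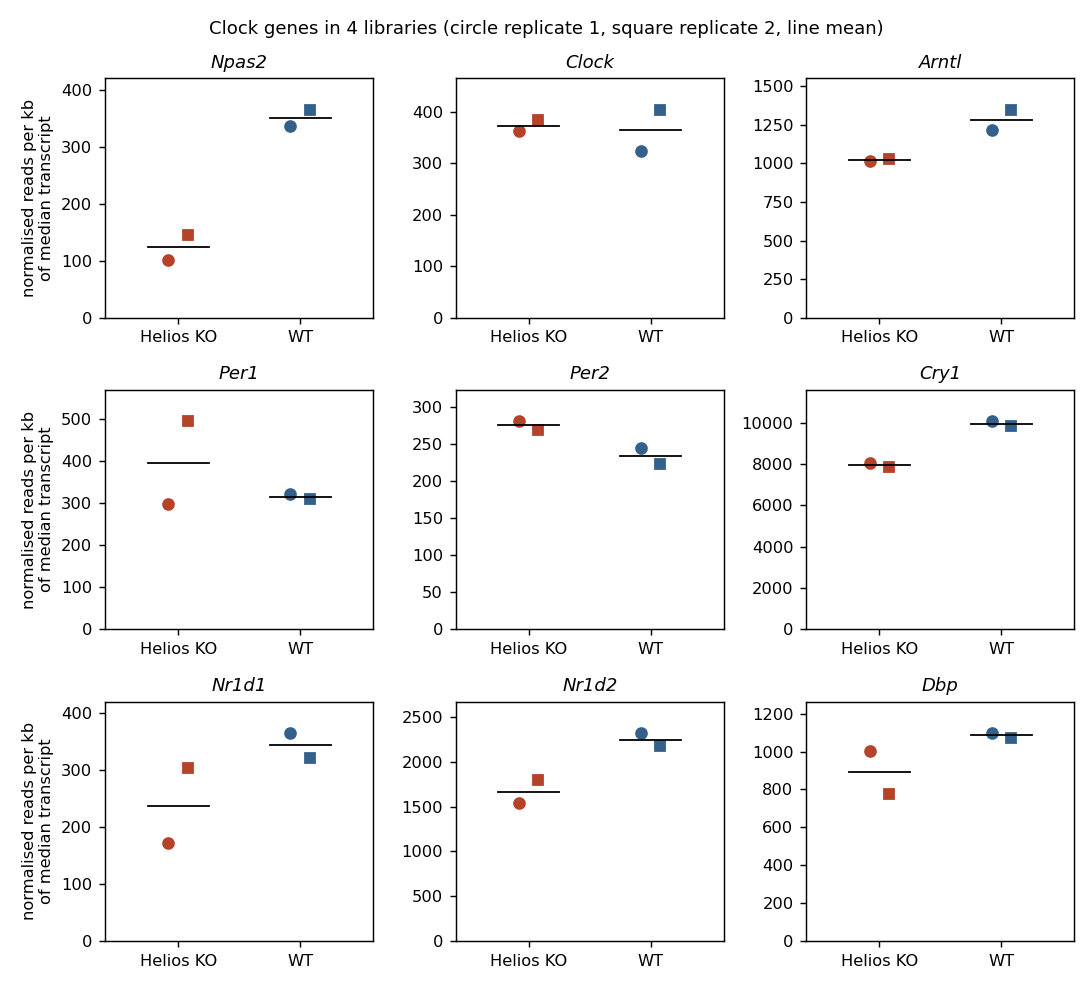
Value of each of the 9 clock genes in each library, in normalised reads per kb (median transcript length), with Helios KO at the left and WT at the right of each panel, circles for replicate 1, squares for replicate 2 and a line at the mean of each group. Npas2 shows the widest gap between the groups relative to its level, with 102 and 145 in Helios KO and 336 and 365 in WT, and Clock and Per1 overlap.

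Npas2 (ENSMUSG00000026077, chromosome 1, 39193731 to 39363236, plus strand, mm10), the relative of Clock that can take its place as partner of BMAL1, lay furthest from WT. Its value was 102 and 145 in Helios KO replicates 1 and 2, and 336 and 365 in WT replicates 1 and 2. The lowest WT library was thus well above the higher knockout library. Npas2 averaged 124 ± 30.3 in Helios KO and 351 ± 20.8 in WT (SD, n = 2 each), a ratio of 0.353 and a log2 difference of -1.52 (SE 0.25). In order of log2 difference it was number 44 from the lowest of 11571 tested genes.

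The Npas2 values rest on few reads. They correspond to 43 and 71 reads in Helios KO, with exact 95% Poisson intervals of 31.1 to 57.9 and 55.5 to 89.6. In WT they correspond to 173 and 189 reads, with intervals of 148 to 201 and 163 to 218. These intervals cover counting error alone and are of reads not scaled for depth, so they show the precision of each value and do not compare the genotypes. Set against the WT mean, replicate 1 differed by -1.77 and replicate 2 by -1.27 on the log2 scale.

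Clock (ENSMUSG00000029238, chromosome 5, 76209868 to 76304792) did not show this pattern. It was at 362 and 385 in Helios KO and at 325 and 405 in WT, and both knockout values lay between those of the WT libraries. Its log2 difference was 0.04 (SE 0.18). The ratio of Npas2 to Clock, each per kb of its longest transcript, was 0.0788 and 0.105 in the Helios KO libraries and 0.288 and 0.252 in the WT libraries. On that scale Clock was the more abundant of the relatives in every library. Per kb of the median transcript, Npas2 (336) lay above Clock (325) in WT replicate 1 and below it in the other libraries.

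Arntl (ENSMUSG00000055116, chromosome 7, 113207465 to 113314126), whose product BMAL1 is the shared partner of both, was at 1016 and 1025 in Helios KO and at 1212 and 1347 in WT. The knockout libraries were close to each other and below both WT libraries. The means were 1021 ± 6.31 in Helios KO and 1279 ± 95.4 in WT (SD, n = 2 each), with a ratio of 0.798 and a log2 difference of -0.32 (SE 0.12). The shift of Arntl was much smaller than that of Npas2 and alike in both knockout libraries, at -0.33 and -0.32.

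The start regions of 4 of these genes are shown so that sequences known from the loop can be looked for in them. They are Npas2, the gene furthest from WT, its partner gene Arntl, Cry1 as the most abundant member, and Per1 as a period gene that did not separate the genotypes. Each runs from 250 bases before to 50 bases after a RefSeq gene start (GRCm38.p6) in the direction of transcription. Capitals mark matches on either strand to the E-box CACGTG, the E-prime box CACGTT, the ROR element core TNGGTCA or the D-box TTANGTAA. N is any base, so TNGGTCA is a loose form of the core, and other forms of the ROR element are not marked. The E-box reads the same on both strands, and the marked matches do not overlap.
Npas2: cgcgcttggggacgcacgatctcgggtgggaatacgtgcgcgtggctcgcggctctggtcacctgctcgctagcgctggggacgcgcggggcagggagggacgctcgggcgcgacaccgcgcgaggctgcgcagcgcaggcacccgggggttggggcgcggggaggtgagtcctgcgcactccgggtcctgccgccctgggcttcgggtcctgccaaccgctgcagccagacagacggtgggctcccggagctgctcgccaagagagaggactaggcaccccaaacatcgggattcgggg
Arntl: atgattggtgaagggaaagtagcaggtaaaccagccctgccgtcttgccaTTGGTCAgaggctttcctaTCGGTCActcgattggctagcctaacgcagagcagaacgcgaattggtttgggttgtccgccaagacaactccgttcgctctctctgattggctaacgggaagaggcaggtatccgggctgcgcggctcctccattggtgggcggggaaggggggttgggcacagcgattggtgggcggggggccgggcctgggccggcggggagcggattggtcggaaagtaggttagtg
Cry1: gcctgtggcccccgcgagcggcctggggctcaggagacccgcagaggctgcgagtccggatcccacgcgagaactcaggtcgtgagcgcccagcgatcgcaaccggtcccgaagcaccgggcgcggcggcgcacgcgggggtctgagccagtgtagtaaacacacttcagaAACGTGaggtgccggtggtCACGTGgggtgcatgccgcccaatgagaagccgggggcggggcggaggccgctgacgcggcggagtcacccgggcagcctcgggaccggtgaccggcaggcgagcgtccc
Per1: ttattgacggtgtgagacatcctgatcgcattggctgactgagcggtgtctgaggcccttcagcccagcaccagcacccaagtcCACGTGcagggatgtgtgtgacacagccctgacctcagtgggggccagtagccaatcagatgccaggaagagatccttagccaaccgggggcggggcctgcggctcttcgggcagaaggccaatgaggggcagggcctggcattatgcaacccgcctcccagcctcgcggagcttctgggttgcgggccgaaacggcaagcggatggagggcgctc
The windows lie at chr1:39194022-39194321 on the plus strand for Npas2, chr7:113207215-113207514 on the plus strand for Arntl, chr10:85185005-85185304 on the minus strand for Cry1 and chr11:69098699-69098998 on the plus strand for Per1.

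The Arntl window held the loose ROR element core at 2 places, beginning 200 and 181 bases before the start. These matches read TTGGTCA and TCGGTCA. Cry1 held an E-prime box beginning 79 bases and an E-box beginning 60 bases before the start, and Per1 held an E-box beginning 166 bases before it. The Npas2 window held none of the 4 motifs. RefSeq and GENCODE starts differ for some members. The Dbp window begins at 45704997 and the coordinates given for Dbp at 45705088, so only a short stretch before them was searched. For Npas2 and Per1 the windows lie wholly inside the coordinates given for the 2 genes. Bases before those coordinates were not searched for Npas2 and Per1. Of all 32851 RefSeq windows of this length, 7.15% held the E-box, 4.68% the E-prime box, 11.0% the loose ROR element core and 2.32% the D-box. RefSeq windows were found for 8 of the 9 measured genes, all but Per2. Among the windows not printed, that of Nr1d1 held an E-prime box 28 bases before the start. A second Arntl window held the loose core at 3 places, 2 of them those described and the other reading TAGGTCA, after the start. A second Per1 window and those of Clock, Nr1d2 and Dbp held none of the motifs. A match is a string of letters, not a shown binding site, and windows of this size leave out introns and distant elements.

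Among the repressors of the loop the members lay on both sides. Cry1 (ENSMUSG00000020038, chromosome 10, 85131700 to 85185064), the cryptochrome gene whose start region is shown above, was at 8021 and 7842 in Helios KO and at 10063 and 9809 in WT. Libraries of a genotype differed little, and the groups did not overlap. The means were 7931 ± 127 in Helios KO and 9936 ± 180 in WT (SD, n = 2 each), a ratio of 0.798 and a log2 difference of -0.33 (SE 0.09).

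Per2 (ENSMUSG00000055866, chromosome 1, 91415982 to 91459324), a period gene, was the only one of the 9 higher in both Helios KO libraries, at 280 and 269 in Helios KO and 244 and 223 in WT. The groups were close, with a log2 difference of 0.23 (SE 0.19). Per1 (ENSMUSG00000020893, chromosome 11, 69095217 to 69109960), a period gene that is also quickly induced by hormones and other stimuli, was at 298 and 494 in Helios KO and at 320 and 309 in WT. Helios KO replicate 2 alone was high, and replicate 1 lay just below both WT libraries. The log2 difference of Per1 was 0.28 (SE 0.27) with both knockout libraries and -0.08 without replicate 2, the library that also held the macrophage and neutrophil transcripts.

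The REV-ERB genes, which encode the repressors of the second loop, were both lower in both Helios KO libraries. Nr1d1 (ENSMUSG00000020889, chromosome 11, 98767932 to 98775333) was at 171 and 304 in Helios KO and at 365 and 321 in WT. Replicate 1 lay well below WT, while replicate 2 came close to the lower WT library, with differences from the WT mean of -0.996 and -0.17. The log2 difference of Nr1d1 with both libraries was -0.58 (SE 0.31). Nr1d2 (ENSMUSG00000021775, chromosome 14, 18204054 to 18239127) was at 1537 and 1791 in Helios KO and at 2323 and 2172 in WT. It averaged 1664 ± 180 in Helios KO and 2247 ± 107 in WT (SD, n = 2 each), a ratio of 0.740 and a log2 difference of -0.44 (SE 0.12). The gap of Nr1d2 was thus present in both knockout libraries, at -0.55 and -0.33.

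Dbp (ENSMUSG00000059824, chromosome 7, 45705088 to 45710203), a transcription factor that carries the rhythm to D-box genes, was at 1005 and 775 in Helios KO and at 1099 and 1073 in WT. Here replicate 2 was the lower library, the reverse of Nr1d1, and replicate 1 lay just under WT. The log2 difference of Dbp was -0.30 (SE 0.16), or -0.11 with replicate 1 alone and -0.49 with replicate 2 alone.

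Reads of genes on opposite strands could not be separated, since the library preparation does not mark strand. The annotated exons of Dbp share 539 bases (18.0% of its exonic bases) with Sphk2, which was at 910 and 1021 in Helios KO and at 1076 and 948 in WT. Those of Nr1d1 share 263 bases (8.55%) with Thra, which was at 1088 and 1028 in Helios KO and at 1432 and 1182 in WT. These shares of bases do not bound the uncertainty of Dbp and Nr1d1, since it also depends on the level of the overlapping gene. Thra stood above Nr1d1 in every library and was itself lower in both knockout libraries. The part of Sphk2 and Thra reads in the values of Dbp and Nr1d1 was not tested. The other 7 measured genes shared at most 0.439% of their exonic bases with another annotated gene.

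How abundant each clock gene was relative to the others depended on the length by which reads were divided. The deposited values use the median length over all annotated transcripts, which is 484 bases for Npas2 and 456 bases for Cry1 because short partial transcripts are annotated, whereas their longest transcripts have 4236 and 3026 bases. Per kb of the longest transcript in GENCODE M21, the mean levels in WT ran from Cry1 (1497) through Arntl (874), Dbp (740), Nr1d2 (582), Per1 (271), Nr1d1 (221), Clock (149) and Per2 (121) to Npas2 (40.1). In WT no neighbours in this order had overlapping ranges. On the same scale Helios KO ran from Cry1 (1195) through Arntl (698), Dbp (607), Nr1d2 (431), Per1 (341), Clock (153), Nr1d1 (153) and Per2 (143) to Npas2 (14.1). There the ranges of Nr1d2 and Per1, of Clock and Nr1d1, and of Nr1d1 and Per2 overlapped.

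With the median length as divisor Npas2 stood sixth of the 9 in WT, at about the level of Clock, and with the longest transcript it stood last. Its WT level per kb of the longest transcript was at percentile 16.6 of the tested genes, with Clock at percentile 28.8 and Cry1 at percentile 76.8. Differences between genotypes for a given gene use the same divisor in every library and do not depend on it, apart from the pseudocount.

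**Figure D2:**
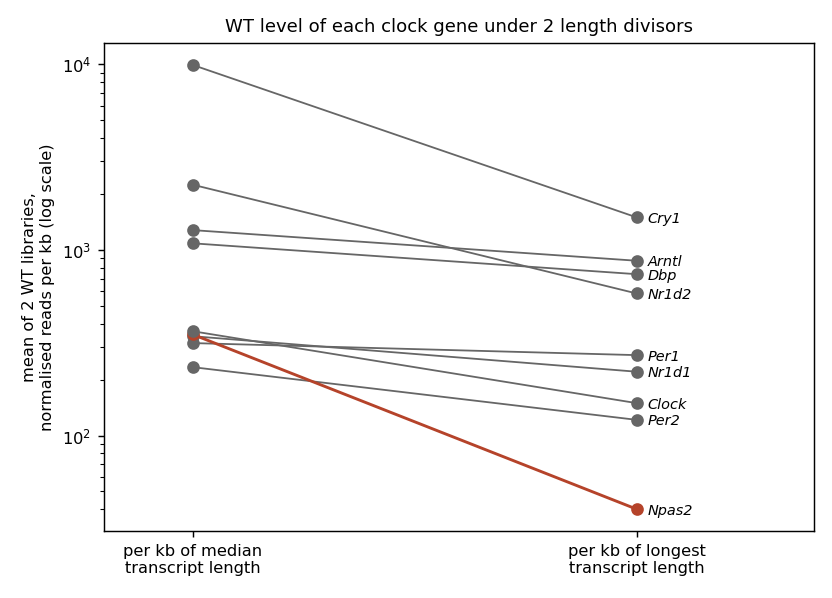
Mean level of each clock gene in the 2 WT libraries on a log axis, in normalised reads per kb of the median transcript length at the left and per kb of the longest transcript at the right. The line of Npas2, in red, runs to 40.1 per kb of the longest transcript, against 351 per kb of the median length, and ends below all other members.

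The other genes of the clock pathway were taken as a list of 22, made up of further loop factors, modifying enzymes and outputs, and 20 of them were tested. In limma, fitted over all 11571 genes, 0 of the 20 were called at an adjusted p under 0.05 (0% of all tested genes). At an unadjusted p under 0.05 there were 1 of the 20 and 386 of all tested genes, and limma-voom on recovered reads called 0 and had 2 of the 20 and 387 of all at that level. Of the 20, 2 were lower (Per3 and Rora) and 3 higher (Bhlhe40, Cipc and Usp2) in both Helios KO libraries, and 15 overlapped. Over all tested genes 15.7% were lower and 12.5% higher by this rule. Their median log2 difference was -0.02.

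Rora encodes a nuclear receptor that activates ROR element genes such as Arntl. It was at 1805 and 2376 in Helios KO and at 3205 and 3691 in WT, a log2 difference of -0.73 (SE 0.16) and the smallest p of the list (limma, unadjusted p = 0.00558, adjusted p = 1.00). Helios KO replicate 1 was the lower library, as in Nr1d1. Rorb, a nuclear receptor of the same kind, had 1 and 0 reads in Helios KO and 0 and 3 reads in WT and was not tested. Nor was Arntl2, a relative of Arntl, with 1 and 4 reads in Helios KO and 11 and 0 reads in WT.

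Per3, the remaining period gene, was at 42.2 and 44.0 in Helios KO and at 65.2 and 65.6 in WT. The libraries of each genotype were close, and the log2 difference of Per3 was -0.59 (SE 0.34, limma adjusted p = 1.00), the other way from Per2. Hlf, a D-box activator related to Dbp, was at 6.83 and 38.7 in Helios KO and at 48.0 and 35.0 in WT. Replicate 1 alone was low in Hlf and the groups overlapped, with a log2 difference of -1.25 (SE 0.86, limma adjusted p = 1.00). Cipc, a negative regulator of the CLOCK and BMAL1 pair, had 0.08 and Usp2, a clock-driven deubiquitinase, had 0.36.

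Bhlhe40, which encodes the E-box repressor DEC1 and is also induced by T cell activation, was at 2257 and 6707 in Helios KO and at 1900 and 1831 in WT. Its log2 difference was 1.06 (SE 0.65, limma adjusted p = 1.00) with both knockout libraries and 0.28 in replicate 1 alone. Nfil3, the D-box repressor, was at 844 and 1624 in Helios KO and at 878 and 963 in WT, again high in replicate 2 alone. When replicate 2 was the sole knockout library, assumed to vary like WT, limma called 2 of the 20, Bhlhe40 and Nfil3, both higher, against 6.4% of all tested genes. When replicate 1 was the sole one it called 0, against 0.277% of all tested genes. Per1, Bhlhe40 and Nfil3 were thus high in the library with the highest macrophage, neutrophil and NK marker sums. The part of those cells in these values was not tested.

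The count of pathway genes below WT also turned on the library. Taking Helios KO replicate 1 alone, 13 of the 20 lay below both WT libraries, against 35.1% of all tested genes, and with replicate 2 alone 5 did, against 34.6%. Per3 and Rora were among them each time. The 6 modifying enzymes, which include the casein kinases Csnk1d and Csnk1e that mark period proteins, had a median log2 difference of -0.02. All 6 overlapped, as did 8309 of all 11571 tested genes. The 4 outputs had a median of 0.03.

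**Figure D3:**
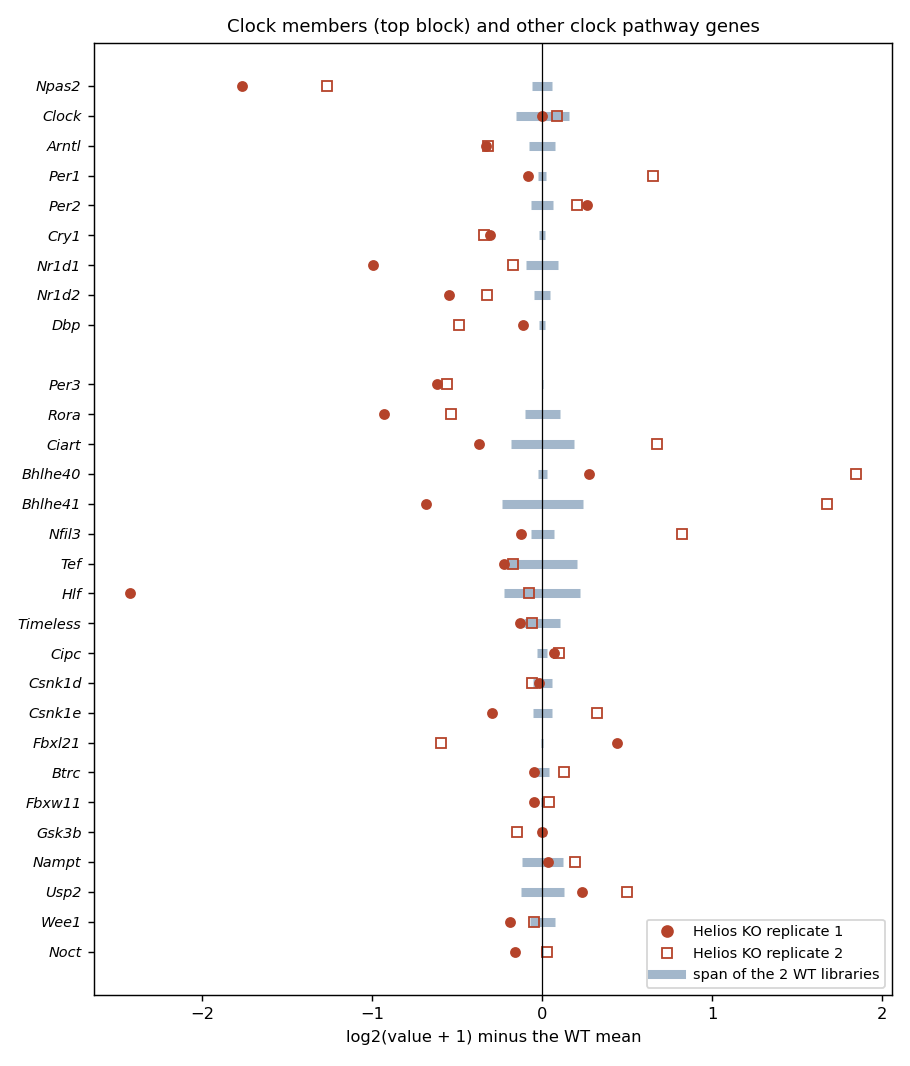
Difference of each Helios KO library from the WT mean in log2(value + 1), for the 9 clock genes in the upper block and the 20 other pathway genes below, with filled circles for replicate 1, open squares for replicate 2 and blue bars for the span of the 2 WT libraries. Npas2, Arntl, Cry1, Nr1d1, Nr1d2, Dbp, Rora and Per3 lie left of the WT span in both libraries. Per1, Bhlhe40, Nfil3, Ciart and Bhlhe41 lie far right in replicate 2 and not in replicate 1.

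Npas2, Per2 and Ikzf2 all lie on chromosome 1. The start of Npas2 lies 30.5 Mb before that of Ikzf2 and the start of Per2 lies 21.8 Mb after it. Of the genes starting within 2 Mb of Npas2, 27 others were tested, and 4 were lower and 2 higher in both Helios KO libraries (against 15.7% and 12.5% of all tested genes). Their median log2 difference was -0.06, and limma called 0 of the 27, with 3 at an unadjusted p under 0.05. Limma-voom also called 0, with 2 at that level. Over all 11571 tested genes both called 0, with 386 at that level in limma and 387 in limma-voom. In the closest tested genes on either side the groups overlapped, unlike in Npas2. Pdcl3, starting 0.208 Mb before it, was at 2139 and 2306 in Helios KO and at 2430 and 2253 in WT, and Tbc1d8, starting 0.285 Mb after it, was at 39.9 and 562 in Helios KO and at 63.2 and 40.1 in WT. Tbc1d8 was high only in Helios KO replicate 2, the library with the highest macrophage and neutrophil marker sums. In replicate 1 Tbc1d8 differed from the WT mean by -0.33. The part of those cells in the Tbc1d8 value was not tested. Both genes were named after their values were seen.

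Of the 4 neighbours lower in both knockout libraries, the widest differences were in 2 receptor genes more than 1 Mb away. Il1rl1, the gene of the interleukin 33 receptor, which starts 1.24 Mb after Npas2, was at 573 and 588 in Helios KO and at 1084 and 1281 in WT (log2 difference -1.02, SE 0.14, limma adjusted p = 0.443). Il18r1, an interleukin 18 receptor chain starting 1.27 Mb after Npas2, was at 312 and 628 in Helios KO and at 1090 and 1409 in WT (log2 difference -1.48, SE 0.40, limma adjusted p = 1.00). Mgat4a at -0.21 and Chst10 at -0.22 were lower by little in both knockout libraries, and Mrpl30 at 0.15 and the small RNA gene Gm23722 at 1.42 were higher. Gm23722 was at 195 and 152 in Helios KO and at 43.4 and 93.6 in WT. It is short, so these values rest on few reads, and it lies within the span of Rnf149 on the same strand. Without Helios KO replicate 1 limma called 4 of the 27, against 6.4% of all tested genes, with Il1rl1 and Il18r1 lower and Il18rap and Tbc1d8 higher. Without Helios KO replicate 2 it called 2, against 0.277%, with Il18r1 and Il18rap lower. Il18rap, the other chain of the interleukin 18 receptor, thus lay on opposite sides in the knockout libraries, at 287 and 1480 in Helios KO and at 727 and 749 in WT.

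**Figure D4:**
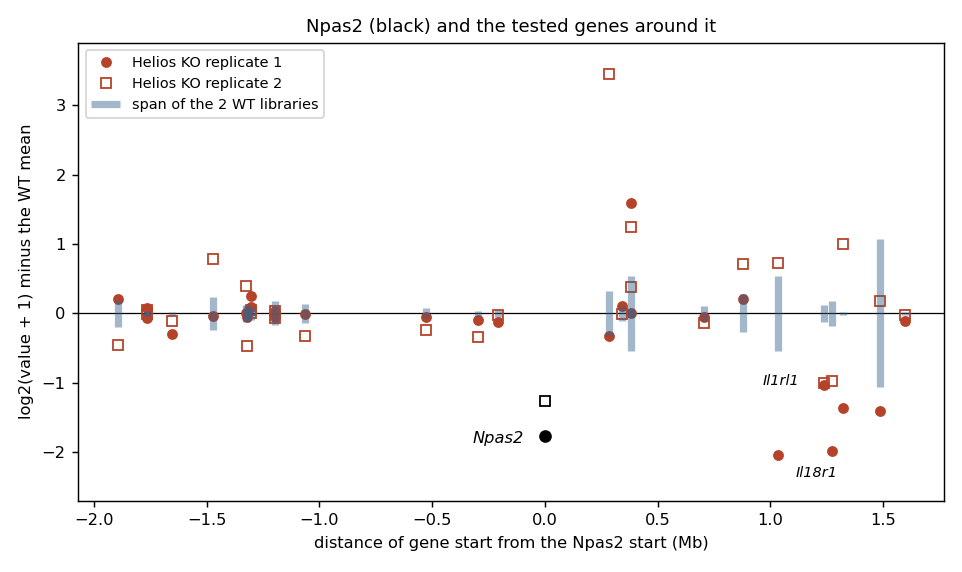
Difference of each Helios KO library from the WT mean in log2(value + 1) for Npas2, in black, and the 27 tested genes starting within 2 Mb of it, in red, by distance of the gene start in Mb, with filled circles for replicate 1, open squares for replicate 2 and blue bars for the span of the 2 WT libraries. Npas2 lies at -1.77 and -1.27, the genes nearest to it lie at higher values, and Il1rl1 and Il18r1 lie near its level at 1.24 and 1.27 Mb.

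The genes whose pattern over the 4 libraries was most like that of Npas2 were sought by the Euclidean distance between centred log2(value + 1) profiles, leaving out pseudogenes, predicted genes and segments of antigen receptors. They were Ccdc136 (distance 0.107), Osbpl6 (0.269), Ttc16 (0.286), Cysltr1 (0.288) and Ankrd6 (0.344). The nearest matches had low values, close to the filter value of 10 in Helios KO. Ccdc136 was at 8.98 and 13.4 in Helios KO and at 30.1 and 31.9 in WT. Osbpl6 was at 6.58 and 8.74 in Helios KO and at 22.5 and 19.9 in WT. Ankrd6 was at 122 and 140 in Helios KO and at 329 and 312 in WT, and Cysltr1, a leukotriene receptor, was at 20.4 and 38.0 in Helios KO and at 75.2 and 76.1 in WT. None of these 5 lies on chromosome 1. For Dbp the nearest were Krt17 (0.00962), Trrap (0.0426), Arhgap35 (0.0440), Ston1 (0.0444) and Gabrr2 (0.0476). No clock gene was among the nearest 5 of either, and 4 libraries are few for such a ranking.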

How the data were processed

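RNA-seq libraries of 2 Helios KO and 2 WT samples were grouped by their titles. Libraries were tagmented from amplified full-length cDNA, a preparation that does not mark strand, per the labels' protocols. The submitters' processing notes name bcl2fastq 2.17.1.14 and mm10. No aligner or counter is named in the sources used here. The signal values deposited by the authors are read numbers, normalised and scaled per kb of a gene's median transcript, per the file headers. All 16383 genes matched GENCODE M21, which gave coordinates and lengths. Values times length in kb, over a step fitted to each library, gave whole reads for 97.2% of 58026 nonzero values (tolerance 0.01 read). These reads, rounded to whole numbers, were used for depth and as an alternative.

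Genes at a value of 10 or above in 2 or more libraries were fitted with limma 3.58.1 in R 4.3.3 on log2(value + 1), with genotype as the only term, trend and robust moderation, two-sided tests and Benjamini-Hochberg adjustment over all genes at 0.05. The fit was tested on simulated data. Means are ± SD of 2 libraries, and each SE is the moderated standard error of this fit. Members, lists and tests were chosen with earlier results of these data known.

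Named were the members, Ikzf2, pathway genes and neighbours of Npas2 with groups that did not overlap, the 3 pathway genes with the smallest p (Rora, Per3 and Hlf), and the 5 profiles nearest to Npas2 and to Dbp. Others were named after their values were seen. The pathway list of 22 leaves out 2 further genes, which are not reported here. Alternatives were median-ratio and read-total rescaling, no filter, a mean of 10 CPM, a pseudocount of 0.1, limma-voom, a replicate block and each library left out. Counts below WT for each Helios KO library alone were added after seeing the data.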

Additional observations from a re-analysis of the deposited data

How the results depend on the processing

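With all 4 libraries, rescaling to recovered read totals or by median ratios, no filter, a mean of at least 10 CPM, a pseudocount of 0.1 and limma-voom left 0 genes called over all genes, among the 20 pathway genes and among the 27 neighbours of Npas2. The fit with the replicate block also called 0 in each. No label says that the replicate numbers pair the samples, and the deviations of same-numbered libraries from their group means had a correlation of 0.106 over 11571 genes. Leaving out a library moved the count over all genes between 0 and 741, with 741 without Helios KO replicate 1 (683 higher and 58 lower) and 32 without Helios KO replicate 2 (6 higher and 26 lower). It moved the count of called pathway genes between 0 and 2 and that of called neighbours between 0 and 4. In these fits the lone library of a group is assumed to vary like the other group.

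The log2 difference of Npas2 lay between -1.52 and -1.50 with all libraries and between -1.77 and -1.27 with a library left out. Npas2 was under the filter at a mean of 10 CPM, so that setting gave no value for it. Npas2, Arntl, Per2, Cry1, Nr1d1, Nr1d2 and Dbp kept their sign in every alternative that gave a value, Per1 in 10 of 11 and Clock in 9 of 11. The count of members below both WT libraries was 6, and 6 or 7 with a single Helios KO library. The count of pathway genes below both was 2, and 5 to 13 with a single Helios KO library, where fewer libraries have to lie below. Depth limits Npas2 most, at 43 to 189 reads a library, where the other members had 260 or more.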

Other observations

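Some other genes of the bHLH-PAS family, the transcription factor family of Npas2, Clock and Arntl, were listed after the data were seen and are given as values only. The list leaves out Arntl2, given above, and is not the whole family. Of the 12 listed genes 9 passed the low-value filter, and 2 of these were lower and 0 higher in both Helios KO libraries, against 15.7% and 12.5% of all tested genes. The 2 were Arnt, the shared partner of the aryl hydrocarbon receptor and the hypoxia factors, at 2082 and 2079 in Helios KO and at 2257 and 2165 in WT, and Npas4, an activity-induced gene of neurons, at 19.1 and 12.8 in Helios KO and at 21.3 and 54.8 in WT. Hif1a, the oxygen-regulated factor, was at 8883 and 9758 in Helios KO and at 8966 and 10432 in WT, and its groups overlapped. Ahr, the aryl hydrocarbon receptor, was at 1035 and 1582 in Helios KO and at 1480 and 1619 in WT, with replicate 1 the low library. Ahrr, its repressor, was at 8.62 and 118 in Helios KO and at 28.1 and 28.0 in WT, high in the library with the highest macrophage and neutrophil marker sums, whose part in this was not tested. The values of Npas1, at 21.04 and 17.1 in Helios KO and at 13.5 and 21.3 in WT, also overlapped.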
